A study of Mus musculus with 4 samples.

Results

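Klf2, Klf3, S1pr1, S1pr4 and Ccr7 are 5 of the 31053 genes counted in CD4 T cells of tumor-bearing and normal mouse lung, and they were followed by symbol through both gene expression libraries. Klf2 and Klf3 are Krüppel-like transcription factors, S1pr1 and S1pr4 are receptors for the lipid sphingosine-1-phosphate (S1P), and Ccr7 is the chemokine receptor that steers T cells into lymph nodes. They were listed by symbol, with earlier results of these data known, and the libraries measure their transcripts, not what Klf2 controls. Each library was divided by UMIs (unique molecular identifiers, the count of distinct captured molecules) of genes outside this group. Foxp3 cells had at least 1 UMI of Foxp3, the factor that defines regulatory T cells (Tregs). Ccl5/Cxcr6 cells had none of Foxp3 and at least 1 of Ccl5, a chemokine of effector T cells, or Cxcr6, a chemokine receptor of tissue T cells. All other cells, with none of the 3, are called remaining cells.

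As background, Klf2 keeps resting T cells in circulation: it switches on S1pr1, which lets a cell sense the S1P gradient and leave a lymphoid organ or tissue. Ccr7 brings the cell back into lymph nodes. Foxo1 is an upstream activator of Klf2, and signals through the antigen receptor and inflammatory cytokines lower Klf2. T cells that settle in tissue lose Klf2 and S1pr1, and the surface protein CD69 binds S1PR1 and removes it from the membrane. Klf3 is a related factor that binds CACCC sequences and mostly acts as a repressor, and S1pr4 is an S1P receptor of lymphoid cells that is not the main receptor for exit.

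Tumor lung came from C57BL/6 mice killed 3 weeks after TC1 tumor cells, a transplantable mouse lung tumor line, were given through the tail vein, and normal lung came from C57BL/6 mice of matched age. Live CD4 T cells were sorted from collagenase-digested lung of each kind, and each suspension gave 1 gene expression library and 1 T cell receptor library. The number of mice behind each suspension is not stated in the labels. There was 1 library per tissue, so no difference between tissues was tested, tissue and library cannot be told apart, and intervals printed as "x to y" are 95% intervals for counting error only.

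Depth was similar in both libraries. UMIs came to 35633167 for tumor and 31697386 for normal, and 7135 and 7082 cells were kept, with medians of 4173 and 3906 UMIs per cell. The libraries shared 86 barcodes, of which 80 were kept in each. Nearly every cell in each class had a UMI of the CD4 T cell list (99.7% or more). Among the kept cells of both libraries Tek and Vwf of the 7 endothelial markers had 0 UMIs, and Cdh5, Kdr and Cldn5 had 0 to 5 UMIs in each library. Pecam1, which resting T cells also carry, made up most of that list (2472 UMIs in tumor, 2454 in normal).

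The class sizes differed. In tumor 1147 Foxp3 cells were counted (16.1%, 15.2 to 16.9), and in normal 206 (2.91%, 2.53 to 3.33). Ccl5/Cxcr6 cells numbered 349 (4.89%) and 303 (4.28%), and remaining cells 5639 (79.0%) and 6573 (92.8%).

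The promoters are shown because Klf factors bind CACCC boxes, and only for genes with a matched sequence. S1pr1 and Ccr7 had none, though both were at least 1.5-fold lower in tumor Foxp3 cells. The windows therefore do not contrast lower genes with others, and a relation of the boxes to the levels was not tested. RefSeq promoter sequences of assembly GRCm38.p6 were matched for 3 of the 5 genes (Klf2, Klf3 and S1pr4), and the 250 bases before the annotated start are printed 5′ to 3′ on the gene's strand. Capitals mark the letters CACCC, searched on both strands and so also as GGGTG, and no match overlaps another.
Klf2, chr8:72318812-72319061, plus strand: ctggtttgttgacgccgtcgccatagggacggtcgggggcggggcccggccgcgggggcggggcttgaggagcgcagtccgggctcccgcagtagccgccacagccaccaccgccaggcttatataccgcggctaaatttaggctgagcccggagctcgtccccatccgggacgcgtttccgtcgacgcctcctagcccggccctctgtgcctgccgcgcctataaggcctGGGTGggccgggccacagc
Klf3, chr5:64803271-64803520, plus strand: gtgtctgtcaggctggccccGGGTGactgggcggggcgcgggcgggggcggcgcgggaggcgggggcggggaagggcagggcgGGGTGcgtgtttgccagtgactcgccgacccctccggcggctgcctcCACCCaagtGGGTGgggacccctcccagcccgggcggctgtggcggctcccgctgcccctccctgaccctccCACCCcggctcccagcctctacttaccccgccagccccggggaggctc
S1pr4, chr10:81500138-81500387, minus strand: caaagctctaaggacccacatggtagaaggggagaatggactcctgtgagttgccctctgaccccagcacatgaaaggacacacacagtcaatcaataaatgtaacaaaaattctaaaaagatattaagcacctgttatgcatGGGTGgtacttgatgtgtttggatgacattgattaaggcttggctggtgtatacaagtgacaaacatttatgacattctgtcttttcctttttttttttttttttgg

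The Klf3 window held 5 CACCC boxes, and those of Klf2 and S1pr4 held 1 each. A box was present in 52.0% of the 32851 promoter windows of this length, so its presence alone is common. The box nearest the start lay 19 bases before it in Klf2, 48 in Klf3 and 107 in S1pr4. The Klf2 and Klf3 windows were 71.2% and 78.4% G or C and the S1pr4 window 38.8%. A match is a description of letters and not evidence of a bound site.

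In Foxp3 cells, 4 of the 5 genes were at least 1.5-fold lower in the tumor library, where 6.19% of all measured genes were (389 of 6289, those whose higher library had 100 UMIs or more). The median log2 ratio over those genes was 0.22, tumor above normal. Foxp3 cells summed to 6159263 UMIs in tumor and 899932 in normal, so 100 UMIs is a lower level in tumor. Genes that are higher in tumor pass that mark more easily, and the shares, median and ranks for Foxp3 cells depend on this. Levels are UMIs summed over the cells of a class and divided by the class total, as counts per 1e6 UMIs (CPM).

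Klf2 (ENSMUSG00000055148, chromosome 8, 72319062 to 72321654) stood at 259.9 CPM (247 to 273) in tumor Foxp3 cells and 1399 CPM (1323 to 1478) in normal Foxp3 cells. It was 5.38-fold lower in tumor, a ratio of 0.186 (0.172 to 0.200), and ranked 4 of 6289 from the lowest ratio. Klf3 (ENSMUSG00000029178, chromosome 5, 64803521 to 64832901) stood at 51.5 CPM in tumor and 260.0 CPM in normal, a ratio of 0.198 (0.167 to 0.235), and ranked 6. The intervals of both factors lay far apart between libraries, and both factors were lower by about the same factor.

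The receptors of the egress and homing route were lower too. S1pr1 (ENSMUSG00000045092, chromosome 3, 115710433 to 115715055) stood at 135 CPM (126 to 144), and at 481 CPM (437 to 529) in normal cells, giving a ratio of 0.280 (0.249 to 0.316). Ccr7 (ENSMUSG00000037944, chromosome 11, 99144199 to 99155077) stood at 442 CPM (426 to 459) and, in normal cells, 1681 CPM (1598 to 1768), which gives 0.263 (0.247 to 0.280). They ranked 26 and 21 of 6289 from the lowest ratio.

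S1pr4 was also lower in tumor, but by less than S1pr1. S1pr4 (ENSMUSG00000044199, chromosome 10, 81497745 to 81500137) stood at 147 CPM (137 to 157) in tumor and 186 CPM (158 to 216) in normal Foxp3 cells. Its ratio of 0.791 (0.670 to 0.939) missed the 1.5-fold mark, and the intervals of both levels nearly met. It ranked 845 of 6289.

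**Figure D1:**
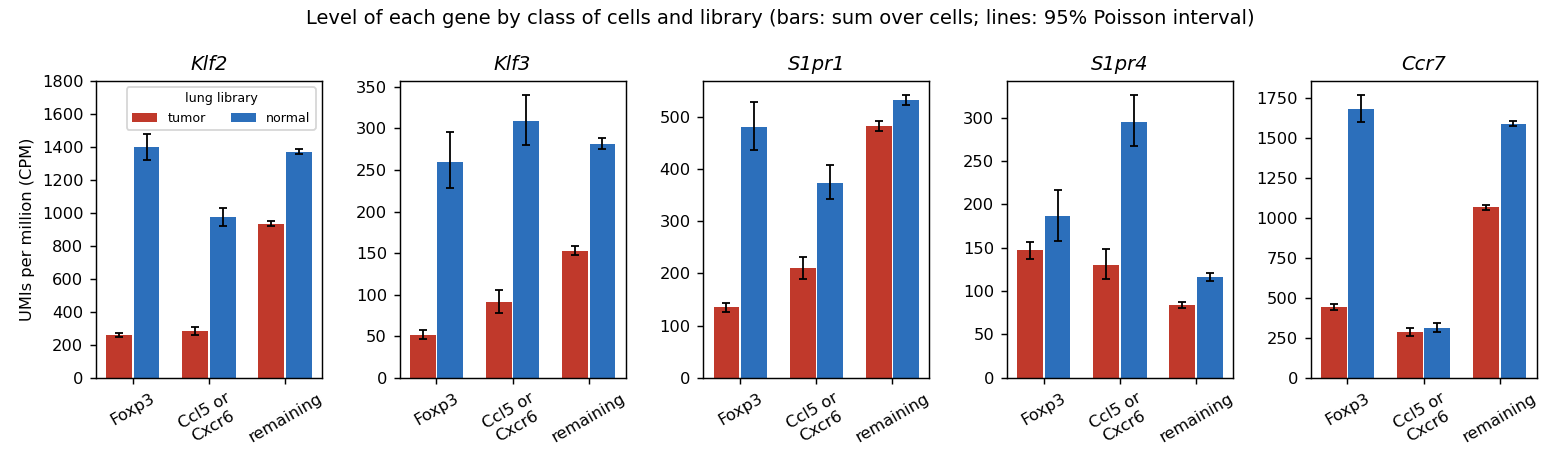
Level of each gene in counts per 1e6 UMIs (CPM, vertical axis, one scale per gene) in Foxp3 cells, Ccl5 or Cxcr6 cells and remaining cells of the tumor (red) and normal (blue) lung libraries; bars are class sums and lines 95% Poisson intervals. Klf2 stands at 259.9 against 1399 CPM in Foxp3 cells, whereas S1pr4 stands at 147 against 186 CPM there and Ccr7 is close in both libraries in Ccl5 or Cxcr6 cells.

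The Foxp3 cells of the libraries were not of one kind. Summed over the 9 markers of the Treg list, Foxp3 among them, the level was 6894 CPM in tumor and 3058 CPM in normal Foxp3 cells. Not all of them were higher in tumor: Gpr83 stood at 13.3 and 58.9 CPM, Lrrc32 at 116 and 181 CPM and Izumo1r at 326 and 332 CPM. The other markers of that list were higher, Ctla4 the most in CPM (1810.0 against 630.0). Over 7 genes of activated Tregs (Klrg1, Tnfrsf9, Ccr8, Il1rl1, Gzmb, Areg and Prdm1) the level was 3015 against 504 CPM, with a UMI of at least 1 of them in 89.4% and 43.2% of cells. Median mitochondrial shares were 1.57% and 2.35%. Markers of lung epithelium summed to 37.7 CPM in tumor and 3.33 CPM in normal Foxp3 cells, mostly Epcam (32.0 and 2.22 CPM), while Sftpb, Krt8 and Cdh1 had 0 UMIs in both. Myeloid markers summed to 181 and 101 CPM, nearly all of it Cst3, with Adgre1, S100a8 and S100a9 at 0 UMIs in both. The part of these markers in the results was not tested. Foxp3 cells were therefore also compared within the number of these 7 genes detected.

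Foxp3 cells without any of the 7 genes numbered 122 in tumor and 117 in normal. Klf2 stood at 917 and 1584 CPM in them, a ratio of 0.579, and Ccr7 at 968 and 1905 CPM, a ratio of 0.508. Klf3 stood at 163 and 276 CPM, a ratio of 0.591. S1pr1 stood at 466 and 521 CPM, a ratio of 0.895 (0.746 at its lower bound). In these cells the difference was thus smaller for all 4 genes than over the whole class, and S1pr1 was close between libraries.

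Within the tumor library, levels of 4 genes stepped down with the number of activated-Treg genes. Klf2 stood at 917, 492, 283 and 137 CPM in cells with 0, 1, 2 and 3 or more of them. S1pr1 stood at 466, 277, 118 and 77.5 CPM in the same order, and Klf3 at 163, 89.0, 48.5 and 32.7 CPM. Ccr7 stood at 968, 844, 561 and 288 CPM, while S1pr4 kept between 128 and 192 CPM with no such order. A cell with more UMIs shows more genes, so the groups also differ in depth, whose part was not tested.

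In the normal library, Klf2 stood at 1584, 1629, 988 and 490.4 CPM over the same steps and Ccr7 at 1905, 2037, 1309 and 336 CPM. The last step held 19 normal cells against 686 tumor cells. There, Ccr7 was close between libraries (288 and 336 CPM), while S1pr1 stood at 77.5 CPM in tumor and 379 CPM in normal, a ratio of 0.205. Klf2 in that step had a ratio of 0.279. S1pr4 was past 1.5-fold lower in this step, at 146 CPM in tumor and 301 CPM in normal (ratio 0.487, 0.346 to 0.705). Ccr7 and S1pr1 thus stood in opposite order at the ends of the scale: S1pr1 was close between libraries in cells with none of the genes and Ccr7 in cells with most.

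**Figure D2:**
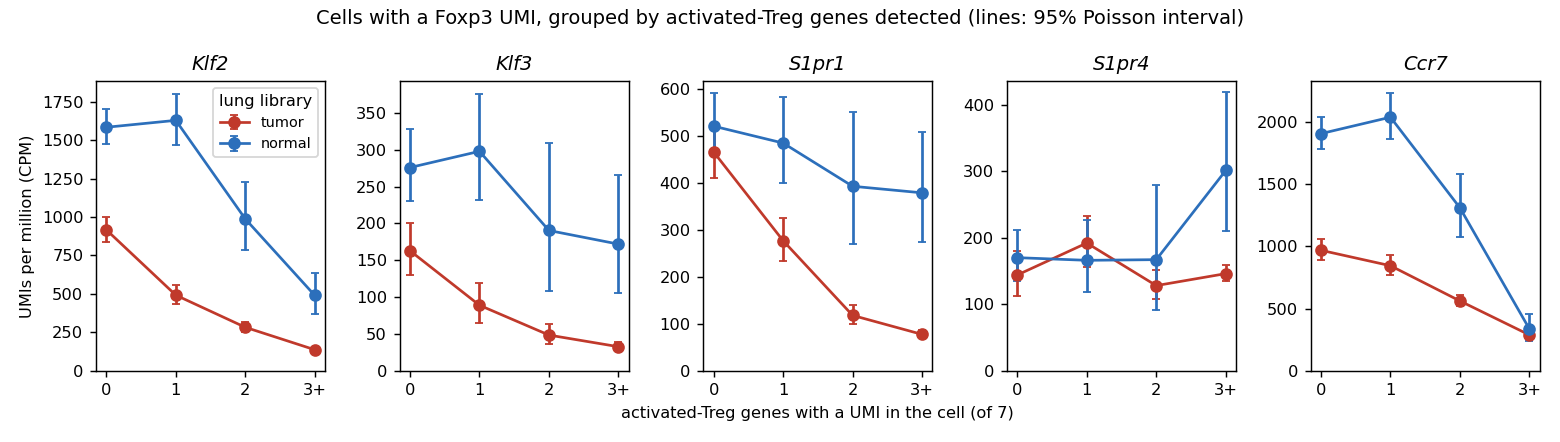
Level in counts per 1e6 UMIs (CPM, vertical axis) of each gene in Foxp3 cells grouped by how many of 7 activated-Treg genes had a UMI (horizontal axis, 0, 1, 2 and 3 or more), for the tumor (red) and normal (blue) libraries; points are group sums and lines 95% Poisson intervals. Tumor Klf2 goes from 917 CPM to 137 CPM, and S1pr4 shows no such slope.

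Among tumor Foxp3 cells, the 478 with a Ccl5 or Cxcr6 UMI had lower levels than the 669 without. Klf2 stood at 137 against 360.0 CPM, Klf3 at 28.9 against 69.9 CPM, S1pr1 at 74.4 against 184 CPM and Ccr7 at 309 against 551 CPM. S1pr4 stood at 139.8 against 152 CPM, a ratio of 0.917 (0.802 to 1.05). The normal library held 10 such cells, too few for the same comparison.

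Ccl5/Cxcr6 cells also had 4 of the 5 genes at least 1.5-fold lower in the tumor library, where 5.76% of 2761 genes were, but a different 4. Klf2 stood at 285 CPM (261 to 310.5) in tumor and 974 CPM (923 to 1028) in normal, a ratio of 0.292 (0.264 to 0.324). Klf3 stood at 90.7 and 309 CPM, a ratio of 0.293 (0.244 to 0.352). S1pr1 stood at 210.1 and 374 CPM, a ratio of 0.562 (0.491 to 0.643). Both factors ranked near the lowest ratios, 16 and 17 of 2761.

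S1pr4 was lower here, at 130.3 CPM (114 to 148) in tumor and 295 CPM (267 to 326) in normal, a ratio of 0.441 (0.374 to 0.519). Ccr7 was not: it stood at 285 CPM (261 to 310.5) and 314 CPM (285 to 345), a ratio of 0.908 (0.798 to 1.03). The remaining S1P receptor with enough UMIs, S1pr5, a receptor of circulating cytotoxic lymphocytes, had 3 UMIs in tumor, all in 1 cell, and 104 in normal. That is a ratio of 0.0217 (0.00439 to 0.0650). Of 5 NK cell markers, 3 had UMIs in this class, summed 13.7 CPM in tumor and 27.1 CPM in normal, with Klra4 and Klra8 at 0 UMIs in both, and their part in the S1pr5 difference was not tested. In normal lung 55 of 303 Ccl5/Cxcr6 cells had an S1pr5 UMI (18.2%) and 2 of 6573 remaining cells did (0.0304%).

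What the Ccl5/Cxcr6 class held differed between libraries. Treg markers other than Foxp3 summed to 2003 CPM in tumor and 513 CPM in normal, and effector or tissue memory markers to 2476 and 9532 CPM, of which Ccl5 itself gave 1195 and 7474 CPM. Without cells carrying 3 or more of the 8 other Treg genes, 155 tumor and 266 normal cells were left. Klf2 then stood at 380.2 and 1013 CPM, a ratio of 0.375 (0.329 to 0.427), and S1pr1 at 267 and 358 CPM, a ratio of 0.745 (0.627 to 0.884). S1pr1 was thereby no longer past 1.5-fold, and the other 3 genes were.

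Ccr7 in Ccl5/Cxcr6 cells hid differences in opposite directions. In cells with a Cxcr6 UMI (199 tumor, 124 normal) it stood at 132 and 337 CPM, a ratio of 0.392. In cells with Ccl5 only (150 and 179) it stood at 523 and 296 CPM, a ratio of 1.77. Klf2, Klf3, S1pr1 and S1pr4 were lower in tumor in both kinds, with ratios from 0.265 to 0.668.

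Remaining cells make up most of each library and carry the naive markers (summed 6736 CPM in tumor and 7851 CPM in normal). Klf2, S1pr1 and Ccr7 are themselves on that marker list, so its sums are not separate from their levels. Remaining cells had the fewest of the 5 genes past the mark. One gene, Klf3, was past 1.5-fold, where 1.28% of 8829 genes were. It stood at 153 CPM (148 to 158) in tumor and 281 CPM (275 to 288) in normal, a ratio of 0.542 (0.521 to 0.564). Ccr7 at 1065 and 1590.0 CPM (ratio 0.669) and Klf2 at 935 and 1371 CPM (ratio 0.682) fell just short of that mark.

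S1pr4 stood at 83.7 and 116 CPM in remaining cells, a ratio of 0.719, and S1pr1 at 483 and 533 CPM, a ratio of 0.907 (0.885 to 0.930). All 5 genes were thus lower in tumor, by unequal amounts, with S1pr1 the nearest to equal. Leaving out cells with 3 or more other Treg genes gave 0.706 for Klf2 and 0.654 for Ccr7.

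Within a library, the classes can be set against the remaining cells of the same suspension, which share its handling. In tumor lung, 4 of 5 genes were at least 1.5-fold lower in Foxp3 cells than in remaining cells (11.3% of genes were), and S1pr4 was higher (26.5% of genes were). The ratios were 0.278 for Klf2, 0.337 for Klf3, 0.279 for S1pr1 and 0.415 for Ccr7, against 1.75 (1.62 to 1.90) for S1pr4. In normal lung, Foxp3 and remaining cells were close: Klf2 had a ratio of 1.02 (0.964 to 1.08), Klf3 0.924, S1pr1 0.903 and Ccr7 1.06. None of the 5 was past 1.5-fold lower there (10.3% of genes were), and S1pr4 at 1.59 (1.36 to 1.86) was higher (13.0% of genes were).

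Against remaining cells, Ccl5/Cxcr6 cells had low Ccr7 in both tissues, with ratios of 0.268 in tumor and 0.197 in normal. Klf2 was different: its ratio was 0.305 (0.279 to 0.332) in tumor and 0.711 (0.672 to 0.751) in normal. S1pr1 followed with 0.435 and 0.702, and Klf3 with 0.595 and 1.10. S1pr4 was higher in Ccl5/Cxcr6 cells of both tissues, with ratios of 1.56 and 2.54. By the 1.5-fold mark, 4 of 5 genes were lower in tumor (10.9% of genes) and 1 in normal (11.4%), and S1pr4 was higher in each (21.8% and 22.0% of genes).

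Shares of cells with a UMI were also compared at equal depth. Such a share falls both when fewer cells carry a gene and when cells carry less of it, so it does not tell these apart. A cell without a UMI may still hold the transcript. Each cell was thinned at random to 2417 UMIs and shallower cells, 393 in tumor and 708 in normal, were left out. No class of cells that should lack these genes was identified in the sort, so the share that free RNA gives was not measured. Klf2 had a UMI in 29.9% of thinned tumor Foxp3 cells (27.2 to 32.8) and 82.4% of normal ones (76.3 to 87.5). Before thinning, at medians of 4725 and 3996 UMIs, the shares were 43.9% and 93.2%. S1pr1 had a UMI in 20.2% and 65.8% of thinned cells, Ccr7 in 29.0% and 78.8%, Klf3 in 8.71% and 47.7%, and S1pr4 in 25.1% and 35.2% (43.0% and 43.2% before thinning).

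Klf2 UMIs per thinned cell had a different spread. In tumor Foxp3 cells 70.1% had 0 and 3.15% had 5 or more, against 17.6% and 32.6% in normal Foxp3 cells. In Ccl5/Cxcr6 cells 63.0% of tumor and 22.2% of normal cells had 0. In remaining cells 21.6% and 10.8% had 0, and 14.7% and 27.1% had 5 or more. Before thinning, at unequal depth, the 10% of tumor Foxp3 cells with the most Klf2 UMIs held 56.7% of them, and in normal Foxp3 cells 26.5%.

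**Figure D3:**
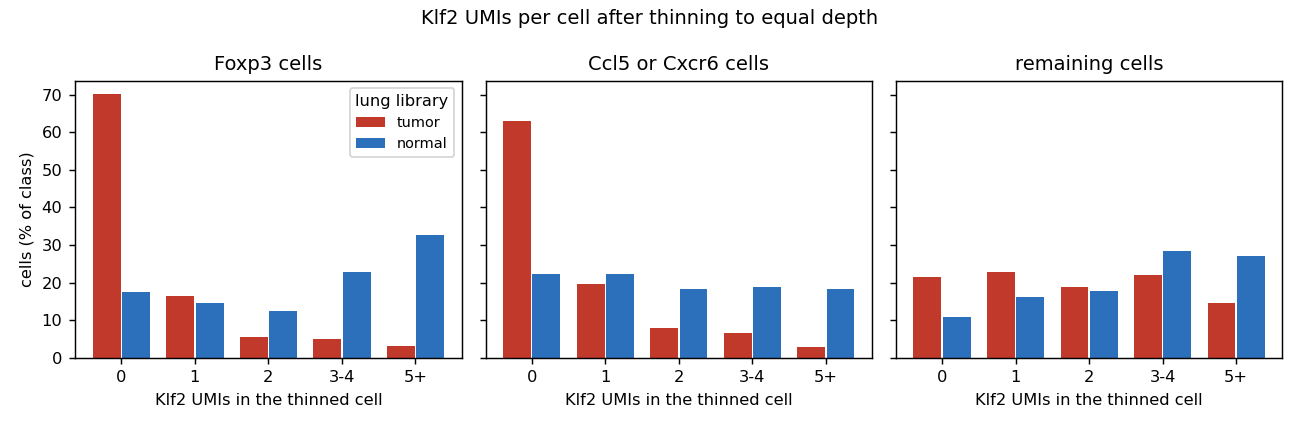
Share of cells (percent of the class, vertical axis) by Klf2 UMIs after thinning each cell to 2417 UMIs (horizontal axis), in the 3 classes of the tumor (red) and normal (blue) libraries. Among Foxp3 cells, 70.1% of tumor and 17.6% of normal cells have 0 Klf2 UMIs.

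Counting the 5 genes together, 35.7% of thinned tumor Foxp3 cells (32.8 to 38.6) had a UMI of none, against 1.04% (0.126 to 3.69) of normal ones. In remaining cells these shares were 2.19% and 0.203%. For the egress and the homing receptor as a pair, 60.4% of tumor Foxp3 cells had a UMI of neither S1pr1 nor Ccr7, and 9.64% had UMIs of both. In normal Foxp3 cells 5.18% had neither and 49.7% had both. Normal Ccl5/Cxcr6 cells had S1pr1 without Ccr7 in 41.7%, whereas 6.39% had Ccr7 without S1pr1. Foxp3 cells had the single receptor the other way round, with S1pr1 alone in 10.6% and Ccr7 alone in 19.4% of tumor cells and 16.1% and 29.0% of normal ones. Remaining cells had the same order as Foxp3 cells, with 14.3% and 26.6% in tumor and 7.08% and 28.2% in normal.

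Coexpression with Klf2 was read in the same thinned cells. In tumor Foxp3 cells, S1pr1 had a UMI in 36.8% of cells with a Klf2 UMI (31.6 to 42.4) and in 13.1% of cells without (10.8 to 15.7). Ccr7 was found in 45.2% and 22.1%, and Klf3 in 17.0% and 5.16%. S1pr4 was found in 27.6% (22.8 to 32.8) and 24.1% (21.1 to 27.3), within counting error of each other. In normal Foxp3 cells Ccr7 was found in 84.9% and 50.0%, but S1pr1 in 66.0% and 64.7% and Klf3 in 47.8% and 47.1%. The normal class held 34 thinned cells without a Klf2 UMI.

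Remaining cells of the tumor library showed smaller steps than its Foxp3 cells. In tumor, S1pr1 was found in 66.8% of cells with a Klf2 UMI and 56.4% without, and Ccr7 in 78.6% and 70.4%. In normal, S1pr1 was found in 69.0% and 66.0% and Klf3 in 46.5% and 37.9%, steps that were not smaller than in normal Foxp3 cells. Ccr7 was found in 90.0% and 87.6%, a smaller step than there. S1pr4 was found in 17.2% and 17.3% in tumor and in 23.4% and 21.9% in normal. In normal Ccl5/Cxcr6 cells S1pr4 was found in 51.7% of cells with a Klf2 UMI (44.7 to 58.7) and 32.2% without (20.6 to 45.6), with intervals that just overlapped.

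**Figure D4:**
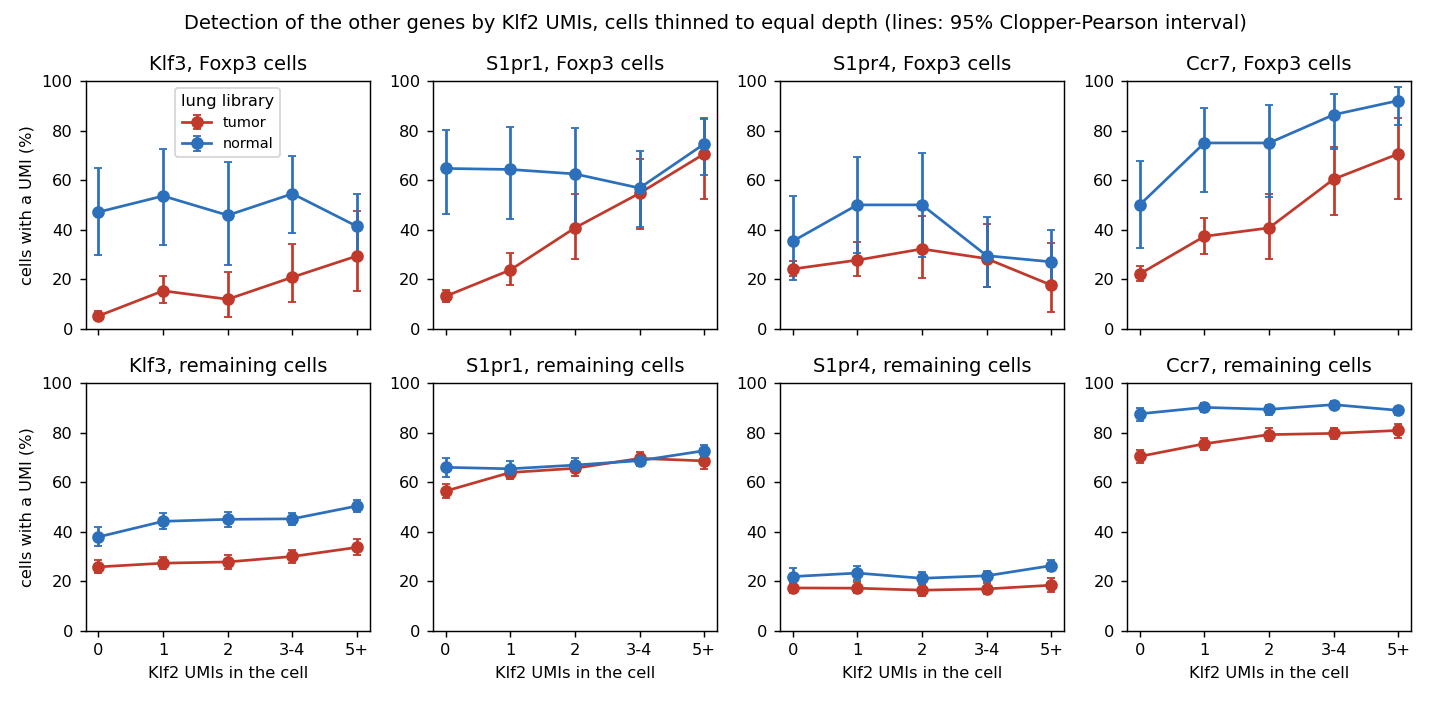
Cells with a UMI of Klf3, S1pr1, S1pr4 or Ccr7 (percent, vertical axis) by Klf2 UMIs in the same thinned cell (horizontal axis), for Foxp3 cells (upper row) and remaining cells (lower row) of the tumor (red) and normal (blue) libraries; lines are 95% Clopper-Pearson intervals. S1pr1 climbs with Klf2 in tumor Foxp3 cells, from 13.1% in cells without a Klf2 UMI, and S1pr4 does not.

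Across all thinned cells, 6742 in tumor and 6374 in normal, Pearson correlations of log-transformed UMIs with Klf2 were low and are descriptions only, over cells that share 1 library per tissue. They were 0.25 in tumor and 0.10 in normal for S1pr1, 0.21 and 0.10 for Ccr7, 0.13 and 0.07 for Klf3, and -0.03 and 0.02 for S1pr4. Ordered by the smaller of both values among 2495 genes found in at least 10% of cells, the 10 genes most like Klf2 were Tsc22d3, Vps37b, H3f3b, Eif1, Btg1, Ppp1r15a, Pnrc1, S1pr1, Ccr7 and Txnip. S1pr1 was thus at rank 8 and Ccr7 at rank 9, with Klf3 at 21 and Foxo1 at 60. Genes whose values had opposite signs in the libraries, S1pr4 among them, were tied in this order and have no rank of their own. The 5 lowest were S100a11 (-0.31 and -0.10), Lgals1, Gadd45b, Nfkbia and B2m. Within Foxp3 cells the correlation of Klf2 with S1pr1 was 0.37 in tumor and 0.06 in normal, and with Ccr7 0.27 and 0.43. Within remaining cells the correlation with S1pr1 was 0.11 in tumor and 0.10 in normal.

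Cd69, whose protein removes S1PR1 from the surface, had a higher transcript level in every tumor class: 370.3 against 212 CPM in Foxp3 cells, 464 against 251 in Ccl5/Cxcr6 cells and 321 against 188 in remaining cells. Within a library, S1pr1 was less than 1.5-fold apart by Cd69 in each class. In tumor remaining cells it stood at 452 CPM with a Cd69 UMI and 524 CPM without, a ratio of 0.864 (0.832 to 0.896), and in normal ones at 501 and 555 CPM, a ratio of 0.903 (0.873 to 0.935). In tumor Foxp3 cells it stood at 131 and 144 CPM, a ratio of 0.907 (0.784 to 1.05), and in normal Foxp3 cells at 413 and 553 CPM, a ratio of 0.747 (0.614 to 0.906). Klf3 had a larger step in tumor Foxp3 cells, at 58.7 CPM with and 35.6 CPM without a Cd69 UMI (ratio 1.65, 1.26 to 2.18). Between libraries, S1pr1 stood at 144 CPM in tumor and 553 CPM in normal Foxp3 cells without a Cd69 UMI. With one it stood at 131 and 413 CPM. A cell without a Cd69 UMI may still hold the transcript, and the part of Cd69 in the S1pr1 levels was not tested.

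Clone size, taken from the receptor sequences, was set against the same genes. In tumor lung 275 Foxp3 cells belonged to clones of at least 2 cells and 621 were single. Klf2 stood at 94.7 CPM in expanded and 307 CPM in single cells, a ratio of 0.308 (0.256 to 0.368). Klf3 stood at 13.6 and 67.8 CPM, S1pr1 at 58.6 and 170.2 CPM, and Ccr7 at 231 and 496 CPM. S1pr4 stood at 144 and 157 CPM, a ratio of 0.918 (0.780 to 1.08). Single tumor Foxp3 cells were still below single normal ones, with ratios of 0.224 for Klf2 and 0.349 for S1pr1. Normal lung had 9 expanded Foxp3 cells.

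In Ccl5/Cxcr6 cells, S1pr4 was higher in expanded clones of both tissues, at 219.7 against 112 CPM in tumor (ratio 1.96, 1.46 to 2.63) and 421 against 242 CPM in normal (ratio 1.73, 1.38 to 2.17). Ccr7 was lower in them, at 96.3 against 256 CPM in tumor and 22.7 against 443 CPM in normal (ratio 0.0513, 0.0219 to 0.102). Klf2 stood at 172 CPM in expanded and 329 CPM in single cells of tumor (ratio 0.522, 0.388 to 0.690), and at 858 and 1006 CPM in normal (ratio 0.853, 0.743 to 0.977). The expanded groups held 60 and 73 cells. Cells of 1 clone share their origin, and these intervals treat their UMIs as independent.

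Other genes of the pathway were described from lists. In Foxp3 cells, 6.19% of all genes were lower and 26.0% higher. Of 9 Krüppel-like genes measured 3 were lower (Klf2, Klf3 and Klf7, ratio 0.498) and 2 higher (Klf9 at 2.10 and Klf10 at 1.77). The list median log2 ratio was -0.21 against 0.22 over all genes. Klf2 and Klf3 are member genes, so this count and median are not separate from their own results. Of 10 upstream genes measured, 2 were lower (against the same 6.19%), Foxp1 with a ratio of 0.361 and Pik3ip1, an inhibitor of PI3 kinase, with 0.632. Foxo1 stood at 206 and 277 CPM (ratio 0.744) and Il7r, the interleukin-7 receptor, at 702 and 530.0 CPM (ratio 1.33). The list median was -0.20.

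Homing and retention genes in Foxp3 cells split. Among 10 lymph node homing genes measured, 4 were lower, where 6.19% of all genes were. These included the integrin subunit Itgb1 (ratio 0.299), the adhesion molecule Icam2 (0.466) and Ccr7, a member gene already described. Cxcr4, the receptor for CXCL12, was higher (3.42). The naive and quiescence list had 10 of 13 genes lower beside that 6.19%, among them Ly6c1 (0.200), Bach2 (0.254), Tcf7 (0.262) and Satb1 (0.280), with a median of -1.47. The list of exit blockers and residence genes had 11 of 11 higher, where 26.0% of all genes were, with a median of 1.87. It included Rgs16 (ratio 7.07) and Rgs1 (3.65), which damp signals of G protein-coupled receptors, and Bhlhe40 (5.36), a factor of tissue-resident T cells. Receptors for inflamed tissue had 6 of 7 higher, among them Ccr8 (12.1), Cxcr6 (6.79) and Cxcr3 (5.52).

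Of 19 migration signalling genes measured in Foxp3 cells none was lower, where 6.19% of all genes were, and 2 were higher, where 26.0% were. The higher genes were Arrb2, an arrestin that takes receptors off the surface (ratio 2.13), and Fermt3, an integrin activator (1.74). Gnai2, the inhibitory G protein subunit that couples to S1pr1 and Ccr7, stood at 273 and 239 CPM. The list median of 0.19 lay beside the 0.22 of all genes. In the S1P metabolism list 1 of 4 genes was higher, Asah1, an acid ceramidase (2.86, from 10 UMIs in normal), again beside 26.0% of all genes.

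Activation and handling genes are given because either can move with Klf2. In Foxp3 cells 11 of 13 activation genes were higher, led by Tnfrsf9 (9.63), where 26.0% of all genes were. Of 15 immediate early genes there 5 were higher, a share near that of all genes, and 1, Jun (0.593), was lower, with Fos at 0.902. In remaining cells 11 of 14 activation genes and 6 of 16 immediate early genes were higher, where 4.39% of all genes were, among them Egr1 (2.33) and Socs3 (3.44). The part of activation or of tissue digestion in the member genes' levels was not tested.

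In Ccl5/Cxcr6 cells 4 of 9 homing genes were lower, where 5.76% of all genes were, the integrins Itgb1 (0.361), Itgb2 (0.409), Itga4 (0.527) and Itgal (0.625), and 1 of 9 naive and quiescence genes was lower. Cx3cr1, a receptor of circulating cytotoxic cells, had 12 UMIs in tumor and 135 in normal there (ratio 0.0667), while 10.4% of all genes were higher and Ccr8 was one of them (7.77). In remaining cells 1.28% of all genes were lower and 4.39% higher. None of the 10 homing genes there was lower, and Cxcr4 was higher (2.06). None of 14 naive genes was lower, and Cdkn2d, a cell cycle inhibitor, was higher (2.03). Having none lower in these lists is close to the share of all genes. Of 10 Krüppel-like genes in remaining cells, Klf3 was lower and Klf10 (2.64) and Klf4 (1.83) were higher, beside the same shares.

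**Figure D5:**
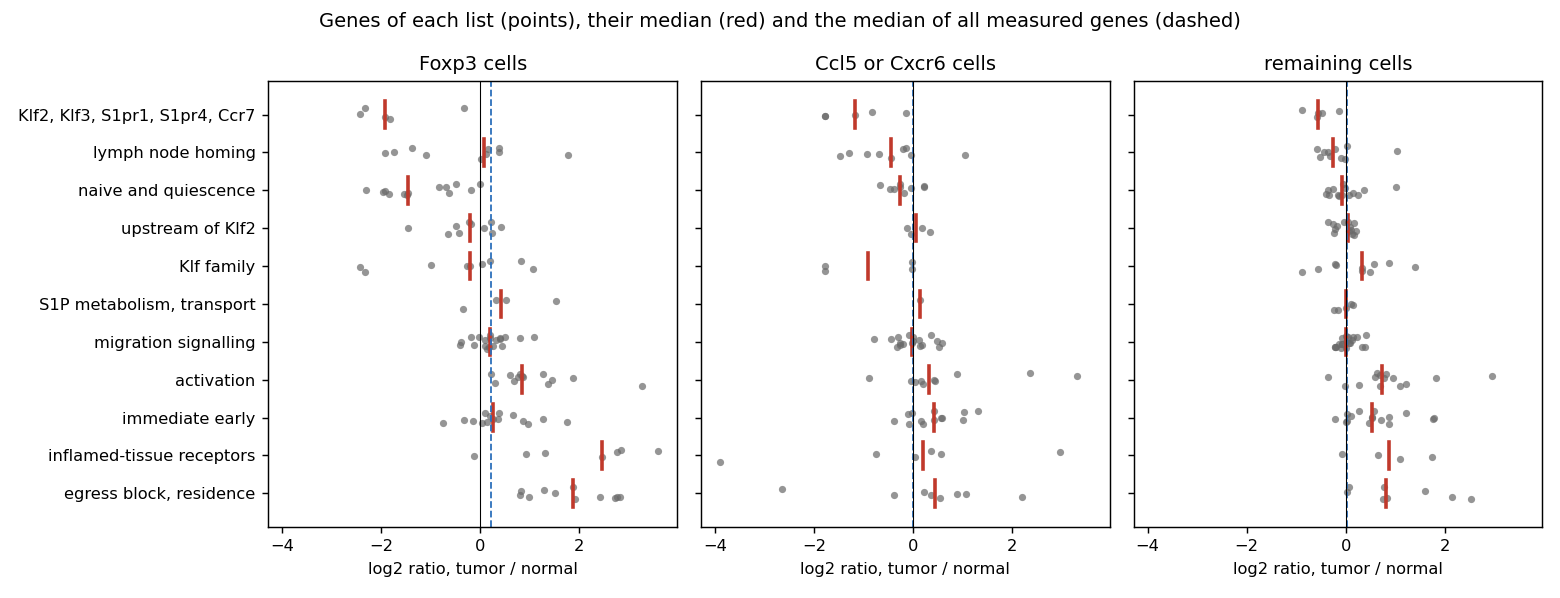
Log2 ratio of tumor to normal level (horizontal axis) of each measured gene (points) in the pathway lists (rows), in the 3 classes; red marks are list medians and the dashed line is the median of all measured genes. In Foxp3 cells the residence list has its median at 1.87, the naive and quiescence list at -1.47 and migration signalling at 0.19.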

How the data were processed

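The deposited gene expression files hold unnormalized UMI counts for each gene in each barcode, produced by the authors with Cell Ranger 3.1.0 per the file headers and on mm10 per the submitters' processing notes. The deposited receptor tables, with counts of reads and UMIs per contig per the file headers, gave chains and clones. Cells with under 500 genes or 10% or more mitochondrial UMIs (120 tumor, 61 normal), or over 2 productive alpha or 1 productive beta chain (533 and 602), were left out. No doublet caller was used. Genes were matched by symbol, and 30934 of 31053 identifiers were found in a GRCm38.p6 table that gave the coordinates.

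UMIs were summed per class and library and expressed per 1e6 UMIs (CPM). Intervals are exact: Poisson for levels, conditional for ratios, Clopper-Pearson for shares. They cover counting error only, treat UMIs of 1 cell as independent, and stand in for tests, since each tissue had 1 library. A gene was counted higher or lower past 1.5-fold, and comparisons over all genes needed 100 UMIs in one of the libraries or classes compared. Where their totals differ, this mark is a lower level on the side with more UMIs, and shares over all genes depend on it. A count of 0 was set to a floor of 3. The functions were tested on simulated data. The member genes and all lists were chosen with earlier results of these data known. Named genes are the members, Cd69, Foxo1, S1pr5 and Il7r, and up to 4 genes per list with the largest change, except some that are not reported here. Further genes named to complete a small count or to state a role (Rgs1, Itgal, Icam2, Gnai2, Jun, Fos, Egr1, Klf4) were chosen after their values were seen. Python 3.11.15, numpy 2.4.6, scipy 1.17.1, pandas 2.3.3 and matplotlib 3.10.9 were used.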

Additional observations from a re-analysis of the deposited data

Results flagged for a closer look

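Ccr7 in Ccl5/Cxcr6 cells differed between tissues in opposite directions in groups of the same class, with intervals on either side of equality. Its ratio of tumor to normal level was 0.392 in cells with a Cxcr6 UMI and 1.77 in cells with Ccl5 only. By clone size it was 4.24 in cells of expanded clones, from 32 tumor and 8 normal UMIs, and 0.576 in single cells. These intervals treat UMIs of 1 cell as independent, while few cells held most Ccr7 UMIs of this class, up to 62 in 1 tumor cell. The intervals are therefore too narrow for differences between cells. The differences between these groups were not tested, since each tissue had 1 library.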

How the results depend on the processing

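The member ratios were recomputed under 14 alternatives, 3 of them chosen after seeing the data (cells with 3 or more other Treg genes left out of the Foxp3-negative classes, only Foxp3 cells with 2 or more other Treg genes, and Foxp3 cells without expanded clones). Of 210 such values 176 stayed within the interval of the reported ratio, 34 moved beyond it and 0 changed the sign of a difference past 1.5-fold. In Foxp3 cells the log2 ratio of Klf2 was -2.56 with at least 2 Foxp3 UMIs, -2.64 by median of ratios scaling, -2.64 without ribosomal, mitochondrial and segment genes in the total, -2.58 with 2 or more other Treg genes and -2.17 without expanded clones. In Ccl5/Cxcr6 cells it was -2.12 with at least 2 UMIs of that pair and -1.41 without cells with 3 or more other Treg genes. In remaining cells it was -0.58, -0.52 and -0.50 with the reduced total, thinned UMIs and without such Treg gene cells.

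The count of lower members in remaining cells was 2 in place of 1, since Ccr7 passed 1.5-fold, in 7 of the 14: no cell filter, no receptor chain filter, median of ratios, the reduced total, the mean over cells, thinned UMIs and without such Treg gene cells. Ccr7 in Ccl5/Cxcr6 cells had no stable direction, from -0.47 with paired receptors to 0.47 with at least 2 UMIs of that pair. S1pr4 in Foxp3 cells had ratios from 0.682 to 0.802 over the 14 alternatives, past 1.5-fold in 0 of them. The causes were not tested. Of 132 counts for lists 105 stayed within 1.5 times, with a 2-fold mark or 20 UMIs, and 27 did not. Of 32 correlations 23 moved with unthinned UMIs or within a class. All 6 background shares moved with a minimum of 20 UMIs or none. No paired analysis was possible because each tissue had 1 library. Normal Foxp3 cells, 206 in all, limit every split of that class.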

Other observations

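Ccr7 UMIs in Ccl5/Cxcr6 cells were held by few cells: the 34 tumor and 30 normal cells with the most UMIs, a share of 10%, held 75.1% and 78.5% of them, with up to 62 UMIs in 1 tumor cell and 33 in 1 normal cell. In remaining cells the same share of cells held 33.7% and 27.1%. Of all S1pr4 UMIs in tumor 28.7% (27.2 to 30.4) lay in Foxp3 cells, which were 16.1% of cells, against 6.53% of Klf2 UMIs and 6.50% of S1pr1 UMIs.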
